A study of Mus musculus with 12 samples.

Results

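The 9 genes described here handle vitamin A in the cell: Stra6, Crabp2, Lrat, Dhrs9, Aldh1a1, Aldh1a2, Aldh1a3, Cyp26b1 and Rarb. They were chosen by symbol, as steps of the uptake, storage, synthesis, breakdown and sensing of retinoic acid, and all 9 were found among the 26264 genes of the count files. Their transcripts were measured by bulk RNA sequencing of mouse endometrial epithelial organoids, which are 3-dimensional cultures grown in a gel from sheets of epithelium taken out of the uterus. The 12 libraries, all from organoids at passage 3, form 4 groups of 3: wild type (WT) organoids without estrogen, WT organoids treated with estrogen, organoids knocked out (KO) for Esr1 without estrogen, and KO organoids treated with estrogen. Esr1 encodes estrogen receptor alpha, and the series is about what this receptor does in the shaping of the uterus. The labels give neither the Esr1 allele, nor a Cre driver, nor the estrogen compound, dose or time, nor the age of the mice behind each library. They do not say whether the 3 libraries of a group came from separate mice or cultures, so that p-values measure only the spread between these libraries. A note in the labels states that neither genotype responded to estrogen.

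Retinoic acid is made from vitamin A in steps. Retinol enters cells through the membrane receptor STRA6, is stored as retinyl ester by the acyltransferase LRAT, and is oxidised to retinal by retinol dehydrogenases such as DHRS9. The aldehyde dehydrogenases ALDH1A1, ALDH1A2 and ALDH1A3 then make retinoic acid, in a step that cannot be reversed, CRABP2 carries it to the nucleus, and enzymes of the CYP26 family break it down. In the nucleus it binds receptors such as RARB, and Rarb is itself a classical retinoic acid target. In the uterus and the Müllerian duct from which it forms, retinoic acid is known for its part in setting the fate of the epithelium.

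The DNA just before the start of transcription is shown for Rarb, the classical target, and for members that differed between the genotypes. RefSeq windows (build GRCm38.p6) were at hand for 7 of the 9 genes, 11 windows in all, and those of Aldh1a3 and Crabp2 were not. Stra6 has 4 windows, of which the only one that holds GGTCA is shown, and Aldh1a1 has 2. Each sequence below is the 250 bases before the start, read 5′ to 3′ on the gene's own strand. In the first, capitals mark a DR5 element, a pair of direct repeats spaced so that the retinoic acid receptor can bind. In the others capitals mark GGTCA, the core of the half-site shared by estrogen and retinoic acid receptors, which reads TGACC where it lies on the other strand.
Rarb, chr14:16575477-16575726, minus strand: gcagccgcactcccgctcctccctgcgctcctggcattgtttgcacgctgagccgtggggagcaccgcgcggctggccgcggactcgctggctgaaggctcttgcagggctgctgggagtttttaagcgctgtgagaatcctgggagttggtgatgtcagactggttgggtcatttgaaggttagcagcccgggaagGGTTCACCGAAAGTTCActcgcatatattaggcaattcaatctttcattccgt
Aldh1a2, chr9:71215539-71215788, plus strand: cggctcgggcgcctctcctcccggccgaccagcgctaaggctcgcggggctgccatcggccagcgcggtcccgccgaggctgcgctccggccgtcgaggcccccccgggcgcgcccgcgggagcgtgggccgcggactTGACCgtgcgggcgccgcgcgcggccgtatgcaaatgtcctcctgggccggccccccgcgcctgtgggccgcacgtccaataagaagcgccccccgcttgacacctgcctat
Lrat, chr3:82903975-82904224, minus strand: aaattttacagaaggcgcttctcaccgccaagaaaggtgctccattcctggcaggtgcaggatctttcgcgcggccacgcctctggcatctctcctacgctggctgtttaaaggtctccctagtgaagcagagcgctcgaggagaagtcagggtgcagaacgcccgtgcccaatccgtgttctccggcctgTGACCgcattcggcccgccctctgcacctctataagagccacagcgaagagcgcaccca
Dhrs9, chr2:69380212-69380461, plus strand: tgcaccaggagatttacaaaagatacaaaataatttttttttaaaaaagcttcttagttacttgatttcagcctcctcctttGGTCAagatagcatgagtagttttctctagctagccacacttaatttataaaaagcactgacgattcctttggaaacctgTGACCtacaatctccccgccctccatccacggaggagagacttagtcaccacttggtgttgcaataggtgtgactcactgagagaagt
Stra6, chr9:58128838-58129087, plus strand: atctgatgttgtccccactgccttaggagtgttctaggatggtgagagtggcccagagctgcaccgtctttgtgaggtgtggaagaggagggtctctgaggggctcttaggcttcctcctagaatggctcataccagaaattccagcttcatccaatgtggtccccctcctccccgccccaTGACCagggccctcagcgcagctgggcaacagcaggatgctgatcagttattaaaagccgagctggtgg
The DR5 element of Rarb spans bases 53 to 37 before the start. It was found in 1 of the 11 windows and in 0.0883% of all 32851 RefSeq windows of the same length, with both strands searched. GGTCA, which also lies inside AGGTCA, was in 6 of the 11 windows and in 35.2% of all windows, and AGGTCA itself in 1 of the 11 (Dhrs9) and in 14% of all. The full palindromic estrogen response element, which joins GGTCA and its mirror image over 3 free bases, was in 0 of the 11 windows and in 0.0639% of all. These matches describe letters in a short window only.

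Library totals ran from 75654191 to 108665407 counted reads, with 75654191 to 83287657 in untreated KO and 102017613 to 108665407 in treated KO. Levels are given in CPM, that is counts per 1e+06 counted reads after TMM scaling, which corrects totals for a few dominant genes. Esr1 itself stood at 253 to 352 CPM in the 6 WT libraries and at 15.9 to 20.3 CPM in the 6 KO libraries, in keeping with their labels. Epithelial markers were present in both genotypes (Krt8 at 450.6 to 802.1 CPM over all 12). Hoxa10 and Hoxa11, listed with them as markers of uterine epithelium, had at most 0.0451 CPM in any library. The genotypes differed across most of the transcriptome: a test across all genes called 71.7% of 16465 genes without estrogen and 70.8% with it. Every count of members below has to be read against that background. All 9 members passed the filter on low counts, but Stra6 and Rarb did so only through the KO libraries.

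The first question is what the loss of Esr1 went with among the enzymes that make retinoic acid. WT organoids had Aldh1a2 and hardly any other retinal dehydrogenase, and KO organoids had Aldh1a3 and almost no Aldh1a2. Aldh1a2, the enzyme that makes most retinoic acid in the early embryo, was read at 2355, 1905 and 2069 CPM in untreated WT and at 1749, 2130 and 1479 CPM in treated WT. In KO it was read at 0.793, 0.640 and 0.473 CPM without and at 1.02, 1.33 and 0.684 CPM with estrogen. The ranges lay more than 3 orders of magnitude apart, and every KO library still held between 42 and 148 Aldh1a2 reads. The mean was 3320.4-fold lower in KO without estrogen and 1766.6-fold lower with it. The log2 fold changes were -11.70 ± 0.337 (SE; adjusted p = 1.31e-09, edgeR) and -10.78 ± 0.323 (adjusted p = 2.18e-09, edgeR). In RNA from whole cultures, fewer cells of a type and less RNA per cell cannot be told apart.

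Aldh1a2 was the 36th most abundant of the 16465 genes in WT and the 13358th in KO. Its fold change was the 16th most negative of all genes without estrogen and the 18th with it. Among the 322 genes above 500 CPM in untreated WT, a set drawn after the values were seen, KO kept a median of 59.7% of the WT level. It kept 0.0301% of Aldh1a2, and only Aqp8, a water channel, at 0.00194% and Havcr1, a membrane receptor, at 0.0145% kept less.

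Aldh1a3, the form known from the eye, the nose and other surface epithelia, went the opposite way. It was read at 0.586, 0.111 and 2.13 CPM in untreated WT and at 1.01, 0.436 and 0.0676 CPM in treated WT. In KO it was read at 99.8, 68.5 and 80.7 CPM without and at 111.3, 59.0 and 66.1 CPM with estrogen. The lowest KO library lay above the highest WT library, and the WT libraries, with 6 to 184 reads, spread over a wider fold range than the KO libraries. Aldh1a3 rose by 6.47 ± 0.844 (adjusted p = 4.22e-05, edgeR) on the log2 scale without and by 7.26 ± 0.889 (adjusted p = 2.74e-05, edgeR) with estrogen.

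Aldh1a1, the third enzyme of the family, was low throughout and uneven. Its levels were 0.306, 2.16 and 0.602 CPM in untreated WT, 2.02, 1.21 and 7.64 CPM in treated WT, 4.83, 15.8 and 5.50 CPM in untreated KO and 6.85, 11.5 and 4.39 CPM in treated KO. The groups did not overlap without estrogen, as for 77.1% of all genes, but did overlap with it, unlike in 73.3% of all genes, where replicate 3 of WT lay above 2 of the 3 KO libraries. It rose by 3.07 ± 0.877 (adjusted p = 0.00866, edgeR) without estrogen. With estrogen the log2 fold change was 1.06 ± 0.808 (adjusted p = 0.259, edgeR), and 2.22 ± 0.832 (adjusted p = 0.0378, edgeR) when that WT library was left out. The difference between these 2 genotype effects was -2.01 ± 1.16 (adjusted p = 0.974, edgeR). Aldh1a1 has a near-identical neighbour, Aldh1a7, and reads that fit both would have been counted for neither.

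To compare the 3 enzymes with each other, CPM was divided by the length of each gene's merged exons (GENCODE M21, build GRCm38), giving CPM per kilobase. Aldh1a2 made up between 99.8% and 99.98% of the summed Aldh1a transcripts in the WT libraries and between 1.11% and 3.76% in the KO libraries. Aldh1a3 made up at most 0.0505% in WT and between 81.0% and 94.2% in KO. Aldh1a1 supplied the rest, 4.26% to 17.5% in KO. The sum itself did not hold level: it ran from 654.9 to 1040.2 CPM per kilobase in WT and from 15.5 to 25.9 in KO. Its mean was thus 46.5-fold lower in KO without estrogen and 41.5-fold lower with it, and by amount Aldh1a3 in KO reached only a small part of the Aldh1a2 level of WT.

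**Figure D1:**
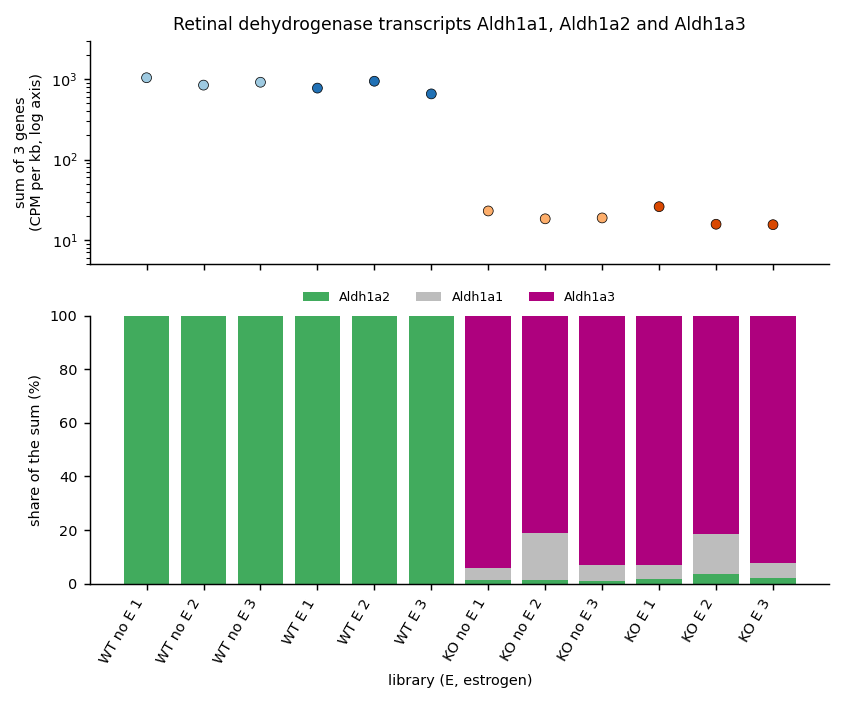
Upper panel: summed level of Aldh1a1, Aldh1a2 and Aldh1a3 in each library, in CPM per kilobase of exon on a log axis. Lower panel: the percent of that sum from each gene. Aldh1a2 made up 99.76% to 99.98% of the 6 WT bars, and Aldh1a3 made up 80.97% to 94.2% of the 6 KO bars.

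Stra6 and Crabp2 were higher in KO. Stra6, the retinol receptor of the cell surface, was close to absent in WT, at 0.0764, 0.0809 and 0.162 CPM without and at 0.247, 0.0242 and 0.0225 CPM with estrogen, or 2 to 24 reads a library. In KO it stood at 23.8, 25.3 and 23.9 CPM without and at 22.2, 23.7 and 18.8 CPM with estrogen. The KO libraries lay close together and all far above WT. Stra6 rose by 7.82 ± 0.529 (adjusted p = 2.47e-07, edgeR) and by 7.70 ± 0.527 (adjusted p = 3.20e-07, edgeR) on the log2 scale. It entered this test only through the KO libraries, where it is high. The gene Ccdc33 overlaps it in RefSeq, and reads were counted without regard to strand, so reads in any shared exon were dropped. The same holds for Rbm46os over Lrat and Gm36393 over Dhrs9, and for 3 genes over Aldh1a1 and 4 over Rarb.

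Crabp2, the carrier that hands retinoic acid to its receptor, was read at 0.956, 1.47 and 2.004 CPM in untreated and at 2.18, 1.72 and 3.48 CPM in treated WT. In KO it was read at 41.5, 25.0 and 29.0 CPM without and at 55.1, 18.8 and 25.9 CPM with estrogen. Replicate 1 was highest in both KO groups, and no KO library reached down to WT. Crabp2 rose by 4.43 ± 0.474 (adjusted p = 9.01e-06, edgeR) without and by 3.76 ± 0.455 (adjusted p = 2.52e-05, edgeR) with estrogen.

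Lrat and Dhrs9 were lower in KO. Lrat, which esterifies retinol for storage, was read at 318.5, 507.5 and 344.7 CPM in untreated WT and at 432.2, 315.3 and 441.6 CPM in treated WT. In untreated KO it was read at 0.0962, 0.0914 and 0.203 CPM, which is 8, 8 and 18 reads. In treated KO it was read at 0.688, 1.12 and 0.399 CPM, which is 80, 124 and 42 reads. All KO libraries lay far below all WT libraries. Lrat fell by 11.53 ± 0.470 (adjusted p = 7.94e-09, edgeR) on the log2 scale without estrogen. With it, the gene fell by 9.07 ± 0.403 (adjusted p = 1.59e-08, edgeR) with it. These were the 20th and the 43rd most negative fold changes of all genes tested.

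Dhrs9, a short-chain dehydrogenase that oxidises retinol and also acts on steroids, was read at 50.8, 70.8 and 35.2 CPM in untreated and at 50.7, 36.6 and 58.7 CPM in treated WT. In KO it was read at 5.94, 3.84 and 5.15 CPM without and at 12.5, 13.2 and 11.1 CPM with estrogen. Unlike Aldh1a2 and Lrat it kept a clear level in KO. It fell by 3.39 ± 0.275 (adjusted p = 9.71e-07, edgeR) without and fell by 1.99 ± 0.257 (adjusted p = 3.98e-05, edgeR) with estrogen.

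Cyp26b1 and Rarb were at the edge of detection in all 4 groups. Cyp26b1, which oxidises retinoic acid to forms that are cleared, was read at 0.255, 0.243 and 0.139 CPM in untreated WT, at 0.144, 0.194 and 0.203 CPM in treated WT, at 0.120, 0.126 and 0.146 CPM in untreated KO and at 0.249, 0.108 and 0.0949 CPM in treated KO. These are 10 to 29 reads a library, and the groups overlapped. Its log2 fold changes between the genotypes were -0.69 ± 0.439 (adjusted p = 0.176, edgeR) without and -0.24 ± 0.429 (adjusted p = 0.624, edgeR) with estrogen.

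Rarb, the receptor gene whose promoter holds the DR5 element shown above, was read at 0.102, 0.0809 and 0.0579 CPM in untreated WT and at 0.0823, 0.157 and 0.113 CPM in treated WT. In KO it was read at 0.144, 0.171 and 0.124 CPM without and at 0.155, 0.234 and 0.142 CPM with estrogen. This is 5 to 26 reads a library, and Rarb entered the test only through the KO libraries. The genotypes lay apart without estrogen, as for 77.1% of all genes, but overlapped with it. The log2 fold change was 0.86 ± 0.412 (adjusted p = 0.0803, edgeR) without and 0.60 ± 0.384 (adjusted p = 0.183, edgeR) with estrogen, and neither passed the threshold of 0.05. With libraries scaled by their size alone the first became 1.09 ± 0.420 (adjusted p = 0.0364, edgeR). At this depth smaller differences of Cyp26b1 and Rarb were not detectable.

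**Figure D2:**
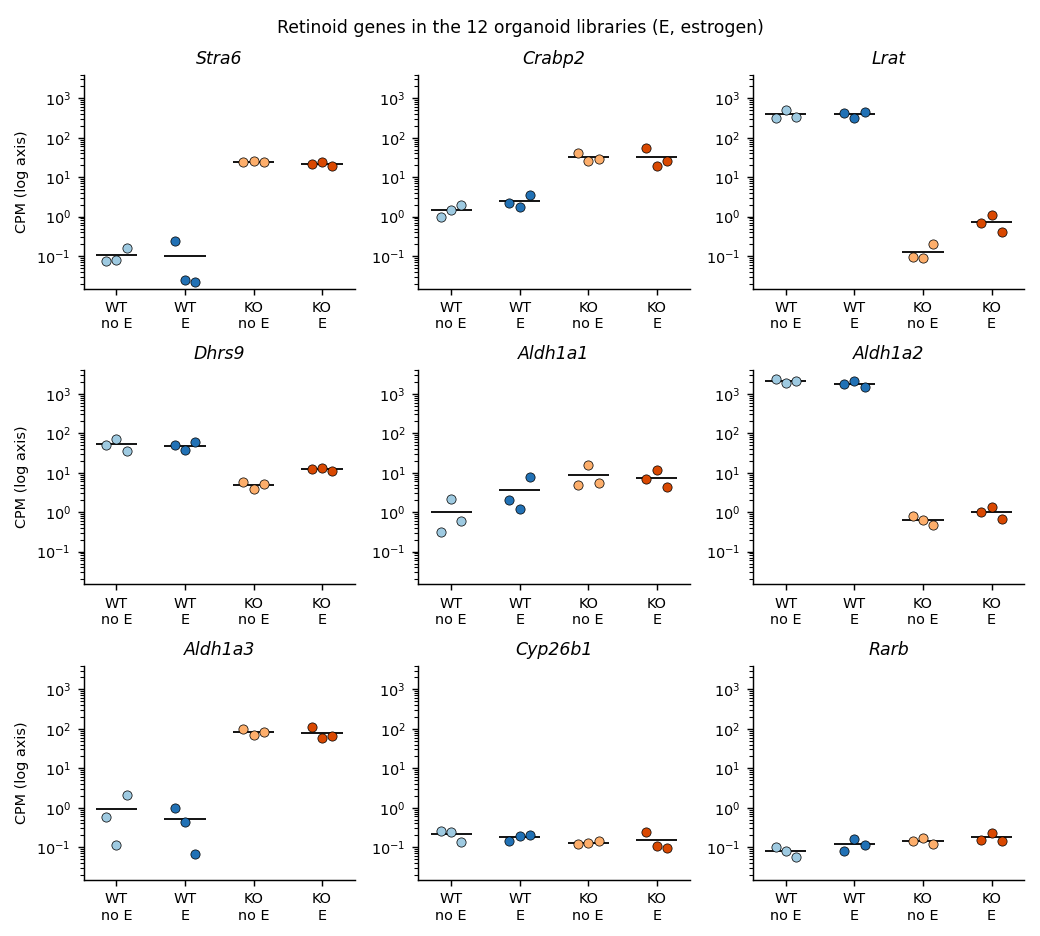
Level of each of the 9 genes in CPM on a log axis, with 1 point per library and a bar at the mean of each group of 3. Aldh1a2 and Lrat drop from 315.3 CPM or more in WT to at most 1.33 CPM in KO, Stra6, Crabp2 and Aldh1a3 rise, and Cyp26b1 and Rarb stay under 0.3 CPM.

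Ordered by CPM per kilobase, WT without estrogen had Aldh1a2 first at 932 ± 100.4 (SD, n = 3), then Lrat at 72.9 ± 19.1, Dhrs9 at 12.2 ± 4.17 and Crabp2 at 1.12 ± 0.397. Aldh1a1, at 0.207 ± 0.202, and Aldh1a3, at 0.204 ± 0.229, did not differ beyond their spread, and Cyp26b1, Stra6 and Rarb were each under 0.04. KO without estrogen had Crabp2 first at 24.1 ± 6.52 and Aldh1a3 next at 18.0 ± 3.42. Their ranges overlapped, but within each of these libraries Crabp2 was the higher. Stra6 followed at 4.17 ± 0.141, Aldh1a1 at 1.77 ± 1.25 and Dhrs9 at 1.16 ± 0.248, the last pair within their spread, while Aldh1a2 stood at 0.281 ± 0.0708. Rarb at 0.0278 ± 0.00453, Cyp26b1 at 0.0244 ± 0.00258 and Lrat at 0.0243 ± 0.0118 came last and did not differ beyond their spread. Aldh1a2 and Lrat, at the head of the WT order, thus stood near or at the end of the KO order.

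Counted over both treatments, 3 of the 9 genes were higher in KO with and without estrogen (Stra6, Crabp2 and Aldh1a3) and 3 were lower in both (Lrat, Dhrs9 and Aldh1a2). Aldh1a1 was called without estrogen only, and Cyp26b1 and Rarb in neither. Stra6, counted among the higher ones, passed the filter on low counts only through the KO libraries. In each treatment alone the calls were 7 of 9 without estrogen and 6 of 9 with it, beside 71.7% and 70.8% of all genes. Of all genes tested, 64.9% were called in both treatments with the same sign, 34.1% higher and 30.8% lower in KO, so 6 of 9 is close to the background. The same 6 genes had 6 KO libraries wholly apart from 6 WT libraries, as did 65.0% of all genes. Over all 9 members the median absolute log2 fold change was 4.43 without and 3.76 with estrogen. That of all genes was 0.75 and 0.72, and that of 42 other retinoid genes was 1.04 and 1.16. The 9 genes were chosen with results of these data known, so their larger median is a description and no sign of what retinoid genes do in general. Those 6 calls and their directions were the same under every alternative setting tried for these comparisons.

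**Figure D3:**
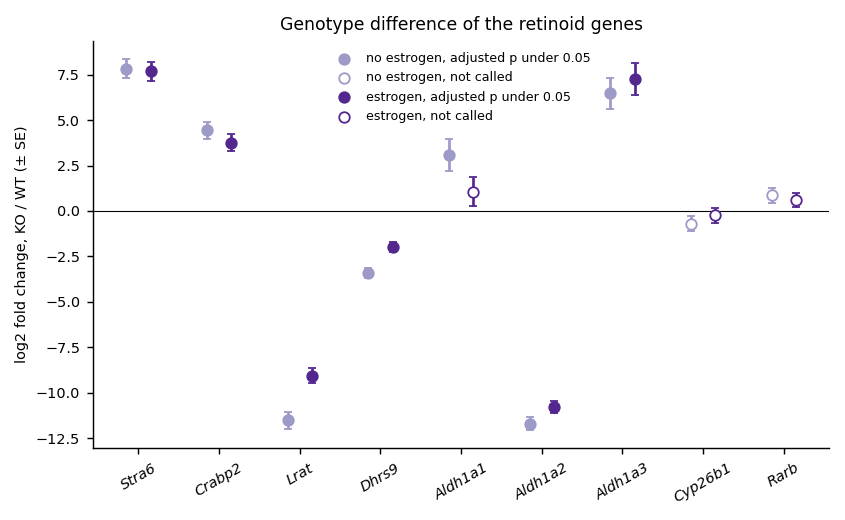
Log2 fold change of KO over WT with its SE for the 9 genes, without and with estrogen (edgeR). Lrat and Aldh1a2 lie between -9 and -12, Stra6 and Aldh1a3 between 6 and 8, and Cyp26b1 and Rarb within 1 of 0.

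Markers of other cell types also moved with the genotype. The summed level of 4 basal and squamous epithelial markers (Krt5, Krt14, Trp63 and Krt13) was 1.80 to 3.63 CPM in WT and 4622 to 11836 CPM in KO. That of 3 markers of multiciliated cells (Foxj1, Dnah5 and Tekt1) was 0.0764 to 0.266 CPM in WT and 429 to 782 CPM in KO. That of 2 uterine gland markers (Foxa2 and Cxcl15) was 1.04 to 3.91 CPM in WT and 78.7 to 95.4 CPM in KO. Of 6 tested epithelial markers, Epcam, Krt18 and Pax8 were lower in KO in both treatments and 0 were higher in both. Krt8 was higher in KO without estrogen alone, by 0.52 ± 0.146 (adjusted p = 0.00769, edgeR). Krt19 was higher with estrogen alone, by 0.84 ± 0.244 (adjusted p = 0.00970, edgeR), and Cdh1 was called in neither treatment. The sum of 4 immune markers was 255 to 474 CPM in WT and 100.3 to 187 CPM in KO. Within it Cd68 went from 202 to 446 CPM in WT to 100.2 to 187 CPM in KO, Csf1r from 19.6 to 49.2 CPM to at most 0.571 CPM, and Ptprc from 3.87 to 7.66 CPM to at most 0.0190 CPM. The part of these cell types in the retinoid differences was not tested. Outside the epithelium Aldh1a2 is a gene of mesothelium and stroma. The 5 mesothelial markers summed to 319 to 631 CPM in WT and 572 to 775 CPM in KO, most of it Krt19 (286 to 549 and 527 to 724 CPM), which epithelium also expresses. Of the others, Msln was read at 24.5 to 86.9 CPM in WT and 23.2 to 70.0 CPM in KO and Upk3b at 0 to 0.439 and 3.65 to 9.72 CPM, while Wt1 and Lrrn4 had 0 reads in all 6 WT libraries. The 6 stromal markers summed to 2.04 to 4.55 CPM in WT and 6.60 to 10.2 CPM in KO. Vim carried the higher sum, at 0.0607 to 0.363 CPM in WT and 5.22 to 7.77 CPM in KO. Dcn was lower in KO with estrogen alone (adjusted p = 0.0146, edgeR), Pdgfra, Col1a1 and Col3a1 were called in neither treatment, and Hand2 was at most 0.0510 CPM in any library.

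Within the KO libraries 2 patterns ran by replicate number. Crabp2 and Aldh1a3 were highest in replicate 1 and lowest in replicate 2 in both treatments. Krt5, a keratin of basal cells, did the same, at 6706, 3366 and 4944 CPM without and at 6715, 2754 and 5005 CPM with estrogen. Aldh1a1 was highest in replicate 2 of both groups. So was Foxj1, the regulator of motile cilia, at 337, 496 and 359 CPM without and at 279, 385 and 283 CPM with estrogen. Stra6 was highest in replicate 2 of both groups too, but its KO libraries differed little, from 18.8 to 25.3 CPM. These are orders among 6 libraries, described after they were seen, and were not tested.

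The second question is whether estrogen moved these genes. In WT no member passed, and 0% of all genes did (edgeR; 883 genes had an unadjusted p under 0.05, and DESeq2 called 63, or 0.383%). The only member with a fold change of 2-fold or more was Aldh1a1, at 1.80 ± 0.848 (adjusted p = 0.937, edgeR) on the log2 scale, and 0 of the 9 had an unadjusted p under 0.05, as had 5.36% of all genes. The other 8 lay between -0.86 and 0.73. Aldh1a2 stood at -0.24 ± 0.210 and Lrat at 0.02 ± 0.276.

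In KO, Lrat and Dhrs9 stood higher with estrogen. Lrat was 5.65-fold and Dhrs9 2.46-fold higher on average, and for both the 3 treated libraries lay above the 3 untreated ones, as for 3.43% of all genes. The log2 differences were 2.48 ± 0.478 for Lrat and 1.30 ± 0.258 for Dhrs9 (adjusted p = 0.876, edgeR for both), so neither passed in this fit, where 0% of all genes passed and 411, or 2.50%, had an unadjusted p under 0.05. KO libraries of the same number deviated together, and with replicate number as a block on the 6 KO libraries both passed. Lrat then rose by 2.40 ± 0.471 (adjusted p = 0.0310, edgeR) and Dhrs9 by 1.31 ± 0.147 (adjusted p = 0.00909, edgeR), among 486 of 15900 genes called. That is 3.06% of genes, with 0.887% higher and 2.17% lower under estrogen. DESeq2 without a block, which called 20 genes or 0.122%, called both, with Lrat at 2.50 ± 0.415 (adjusted p = 1.43e-05, DESeq2) and Dhrs9 at 1.30 ± 0.262 (adjusted p = 0.00363, DESeq2).

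Lrat in treated KO remained 539.4-fold below treated WT, and Dhrs9 3.97-fold below. Aldh1a2 differed by 0.67 ± 0.264 (adjusted p = 1, edgeR) and, with the block, by 0.65 ± 0.230 (adjusted p = 0.178, edgeR), with overlapping groups. Treated KO libraries were the deeper ones, by the totals given above, and the part of depth in these low counts was not tested. Of 31 other genes above 100 CPM in untreated WT and under 1% of that in untreated KO, 28 also stood higher in treated KO. Their median log2 difference was 0.46, with 1 above Lrat, 4 above Dhrs9 and 11 above Aldh1a2. Dhrs9 itself, at 9.52% of WT, lay outside that limit. The set was drawn by the untreated KO level, which also enters the difference. The remaining 6 members lay between -0.21 and 0.27 in the fit without the block. Stra6 was 0.17 ± 0.353 lower (adjusted p = 1, edgeR), and its treated libraries all lay below the untreated ones, at 18.8 to 23.7 against 23.8 to 25.3 CPM, as for 3.47% of all genes.

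Whether estrogen acted differently in the genotypes was tested as the difference of both estrogen effects, KO minus WT. It was 2.46 ± 0.560 for Lrat (adjusted p = 0.871, edgeR), 1.40 ± 0.356 for Dhrs9 (adjusted p = 0.974, edgeR) and -0.67 to 0.91 for the 6 members under 2-fold. No gene of the table passed in edgeR (0%, with 726 genes or 4.41% at an unadjusted p under 0.05). DESeq2 called 25 genes, 0.165% of those tested, and among them Lrat, at 2.48 ± 0.524 (adjusted p = 0.00813, DESeq2).

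**Figure D4:**
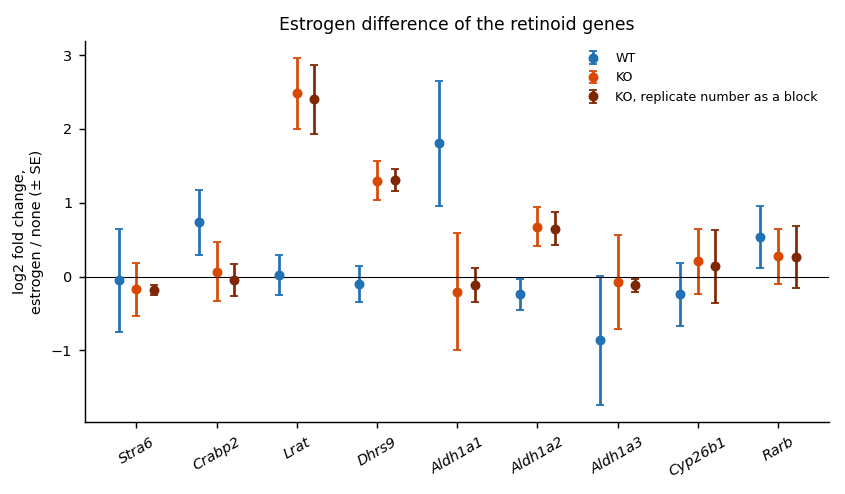
Log2 fold change of estrogen over none with its SE for the 9 genes in WT and in KO without a block, and in KO with replicate number as a block (edgeR). Without the block, Lrat at 2.48 and Dhrs9 at 1.30 in KO and Aldh1a1 at 1.80 in WT are the only ones at 1 or more. With the block, drawn for KO only, Lrat at 2.40 and Dhrs9 at 1.31 are the only ones in KO.

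The wider set of retinoid genes, 53 beside the 9, gave 42 that were tested. Of these 17 were higher and 10 lower in KO in both treatments, 4 were called in 1 treatment and 11 in none, which is again near the background of 64.9%. The counts by class stand beside 34.1% of all genes higher and 30.8% lower in KO in both treatments. Among the genes of carriage and uptake 4 of 7 were higher and 2 lower. The lower ones, named after their values were seen, were Stra6l, a relative of Stra6, at -4.92 ± 0.634 (adjusted p = 3.4e-05, edgeR) and -4.40 ± 0.601, and Scarb1, a lipoprotein receptor, at -0.42 ± 0.0609 and -0.41 ± 0.0608. Stra6l entered the test only through the WT libraries, where it is higher. Rbp2, a retinol carrier of absorbing epithelia, rose by 8.49 ± 0.639 (adjusted p = 5.98e-07, edgeR) without and by 7.98 ± 0.614 (adjusted p = 7.94e-07, edgeR) with estrogen. Rbp4, the retinol carrier of blood that STRA6 recognises, rose by 5.52 ± 0.425 and 4.95 ± 0.410.

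Of 3 genes that make or split retinyl esters, 2 were higher in both treatments: Lipe, a lipase that also splits retinyl esters, by 3.13 ± 0.263 and 3.51 ± 0.268, and Awat2, an acyltransferase that can make them, by 1.64 ± 0.274 and 1.68 ± 0.273. The 16 tested retinol and retinal oxidoreductases went both ways, 4 higher, 5 lower, 2 called once and 5 not called. Adh7, an alcohol dehydrogenase of squamous epithelia that acts on retinol, rose by 7.22 ± 0.730 and 6.91 ± 0.696. It was read at 0 to 0.257 CPM in WT and entered the test only through the KO libraries, where it is high. Dhrs3, which turns retinal back to retinol and is induced by retinoic acid, rose by 2.55 ± 0.278 and 3.13 ± 0.287. Rdh12, a retinal reductase, had log2 fold changes of -3.63 ± 0.286 and -3.03 ± 0.279. Rdh10, the main retinol dehydrogenase of the embryo, fell by 0.71 ± 0.214 (adjusted p = 0.0117, edgeR) without and fell by 0.98 ± 0.215 (adjusted p = 0.00175, edgeR) with estrogen, and the first of these missed the threshold with library size alone (-0.48, adjusted p = 0.0672, edgeR).

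Aldh1a7, the near-identical neighbour of Aldh1a1, rose by 4.38 ± 0.519 and 1.82 ± 0.441. Both further CYP26 genes were tested and neither was called. Cyp26a1, a sensitive retinoic acid target as well as a breakdown enzyme, varied between libraries, from 2.83 to 18.8 CPM in WT and from 3.16 to 11.4 CPM in KO. Its log2 fold changes were -0.37 ± 0.668 (adjusted p = 0.634, edgeR) and -0.75 ± 0.670 (adjusted p = 0.334, edgeR).

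Of 7 tested receptors and co-repressors 3 were higher and 1 lower. Rara stood at 33.0 to 45.2 CPM in WT and 32.4 to 39.2 CPM in KO, with log2 fold changes of 0.03 ± 0.111 and -0.13 ± 0.111. Rarg, the receptor typical of skin, rose by 1.00 ± 0.166 and 1.13 ± 0.167, and Rxra, the shared partner of the receptors, by 1.14 ± 0.0722 and 1.08 ± 0.0721. Rara and Rarg, unlike Rarb, were therefore read well above the limit of detection in all 12 libraries. Known retinoic acid targets went in both directions, 3 of 6 higher and 2 lower, beside 34.1% and 30.8% of all genes. Tgm2, a transglutaminase, was lower, at -3.61 ± 0.269 and -3.15 ± 0.263, going from 3320.4 to 5667 CPM in WT to 302 to 551 CPM in KO. Meis1, a homeobox gene, rose by 1.90 ± 0.0973 and 1.74 ± 0.0968, and Rarres1 by 1.72 ± 0.398 and 1.76 ± 0.396. The larger edgeR adjusted p of the genes said to have changed in these classes, apart from Rdh10, was 0.00325, that of Aldh1a7.

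**Figure D5:**
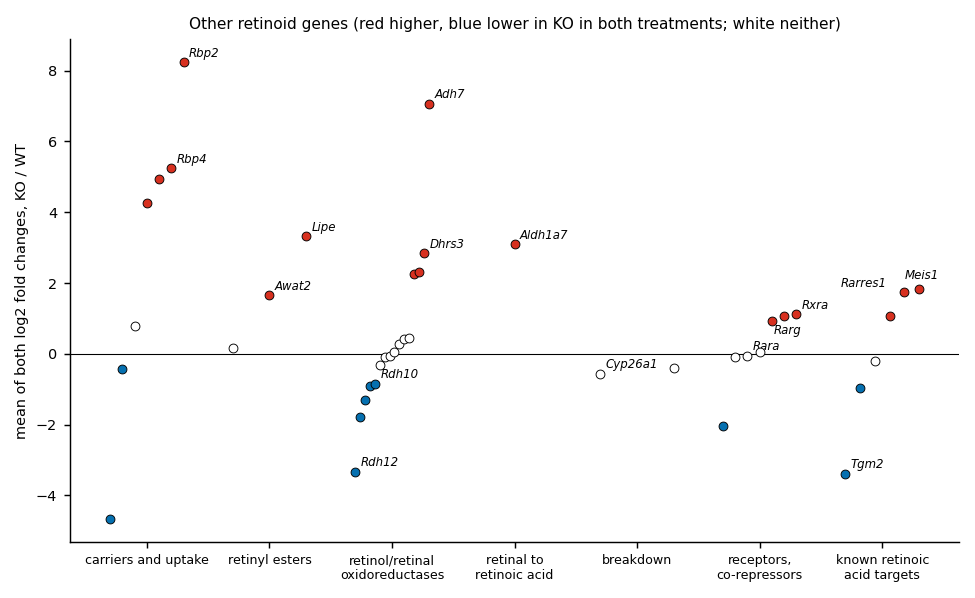
Mean of both log2 fold changes of KO over WT for the 42 tested retinoid genes outside the 9, by class. Red points were higher and blue points lower in KO in both treatments (17 and 10 genes), and white points were neither.

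The genes whose levels over the 12 libraries ran most like Aldh1a2, by distance of centred log2 CPM, were Cd36 (distance 1.94, r = 0.996), a fatty acid transporter, Nptx1 (1.99, r = 0.995), a pentraxin first known from neurons, and Tmod1 (2.27, r = 0.998), which caps actin filaments. Cd36 averaged 137.6 ± 27.5 CPM over the untreated WT libraries but 0.0156 ± 0.0135 CPM over those of untreated KO. Those most like Aldh1a3 were Dmkn (1.18, r = 0.997), a secreted protein of stratified epithelia, Pkp1 (1.73, r = 0.994), a desmosome protein of the same tissues, and Pglyrp3 (1.92, r = 0.990), a secreted protein that binds bacterial cell walls. Dmkn averaged 13.7 ± 13.1 CPM over untreated WT but 1376 ± 306 CPM over untreated KO. Such likeness is common where the genotypes differ so widely: 2609 genes had r above 0.95 with Aldh1a2 and 1664 with Aldh1a3.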

How the data were processed

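RNA was isolated with a Direct-zol kit and sequenced as paired-end TruSeq mRNA libraries on a NovaSeq 6000, per the labels' protocols. The deposited files hold raw counts, which per the file headers the authors made with featureCounts 2.0.0 over RefSeq exons summed by gene symbol. Mates were counted singly, strand was ignored and reads with several places or genes were dropped, so reads are not independent molecules. The submitters' processing notes name featureCounts 2.0.3, STAR 2.7.10b, Trim Galore 0.6.6, FastQC 0.11.7 and build GRCm39.

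Here genes were kept by filterByExpr (minimum count 10, minimum total 15; 16465 of 26264 genes), scaled by TMM and fitted in edgeR 4.0.16 (R 4.3.3) with a robust quasi-likelihood model over the 4 groups. P-values were two-sided and Benjamini-Hochberg adjusted over all genes tested, with a threshold of 0.05. Log2 fold changes carry the SE (the absolute change over the root of F). DESeq2 1.42.0, other scalings and filters, blocks and leaving out each library were the alternatives. The test was tried on simulated data first.

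The members, the gene lists and the rule for named genes (all 9 members, Esr1, up to 3 genes per class with the largest mean change called in both treatments, plus Cyp26a1, Rara, Rarg, Rxra, Rdh10 and Dhrs3, and the 3 genes closest to Aldh1a2 and to Aldh1a3) were chosen with earlier results of these data known. A few genes that the rule names are not reported here. The limit of 2-fold for naming estrogen effects and the motifs shown were chosen after the values were seen. So were the sets of abundant genes set beside Aldh1a2 and beside the estrogen differences in KO. Half-sites and repeats of other spacing were also searched for and are not reported.

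Same-numbered libraries of KO deviated from their group means together across genes (r = 0.568, 0.501 and 0.409 for treated with untreated), by which the numbers pair them, although the labels do not say what a number stands for. Those of WT did not (r = -0.164, -0.157 and -0.390). Libraries of a group differed by 48.8 to 321 times the sampling noise (chi-square per degree of freedom), so none was a copy.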

Additional observations from a re-analysis of the deposited data

How the results depend on the processing

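Of the values of single members under the alternatives, 444 kept direction and side of the threshold, 7 newly passed it, 0 no longer passed and 1 reversed. Of those of Esr1 and the other named retinoid genes, 716 kept both, 1 no longer passed and 5 reversed. The reversals were all of differences that never passed: with a library left out, Cyp26b1 with estrogen ran from -0.81 to 0.011 (above 0 without replicate 3 of treated KO). Cyp26a1 ran from -0.85 to 0.043 without estrogen (above 0 without replicate 1 of untreated WT) and from -1.32 to 0.028 with it (above 0 without replicate 2 of treated WT). Rara ran from -0.038 to 0.099 without estrogen (-0.014 without replicate 3 of untreated WT, -0.038 without replicate 2 of untreated KO) and stood at 0.058 with estrogen under library size alone. Their causes were not tested.

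Counts of genes called between the genotypes kept within 1.5 times under all settings (10205 to 11970 without estrogen, 10067 to 11806 with it). With library size alone the median log2 fold change moved by 0.226 and 0.185, and the share higher in KO among called genes from 52.5% to 65.5% and from 51.9% to 63.1%. Counts for estrogen depended on the test. In WT, 0 genes passed in edgeR, 63 in DESeq2 and 0 to 54 with a library left out (54 without replicate 1 of treated WT, 1 without replicate 3 of untreated WT). In KO, 0 passed in edgeR, 20 in DESeq2, 486 with the replicate block within the genotype and 0 to 4 with a library left out (4 without replicate 3 of untreated KO). For the difference of the effects these were 0, 25 in DESeq2 and 0 to 6 (6 without replicate 1 of treated WT). A replicate block over all groups gave 11813 and 11640 genes between the genotypes and 0 for estrogen; beside Lrat and Dhrs9 in KO no member's call changed with a block. Filtering at 1 CPM in 3 libraries left Cyp26b1 and Rarb untested, and their 5 to 29 reads a library limit what could be seen.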
